A study of Homo sapiens with 8 samples.

Results

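The comparison described here is between siOrc6 cells treated with H2O2 and siOrc6 cells left untreated (NT), as lists of accessible chromatin regions. U2OS cells, an established human osteosarcoma line, received an siRNA against Orc6 for 72 h, were arrested by a double thymidine block, were released for 3 h, and were collected either after 30 min in 5 mM H2O2 or with no H2O2. Both groups therefore share the Orc6 depletion, the block and the release. The same pair of treatments was given to cells with a control siRNA, siGl3, and is used below for comparison. Of the 8 ATAC-seq libraries of the series, 4 belong to the siOrc6 pair, as 2 per treatment numbered by batch. Only 1 peak list, named for both replicates, was deposited for each treatment, so the spread between libraries cannot be given and no test across libraries was possible. Separate cultures for the libraries of a treatment are not stated in the labels. Depth is unknown, since the lists hold no read counts. Peaks on chromosomes 1 to 22 and X that overlapped or touched were merged, which gave 114070 regions in siOrc6 cells, all of which are described, and 121145 in siGl3 cells. An siRNA acts on mRNA, so a peak at ORC6 is no check of the depletion.

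ATAC-seq uses a transposase that cuts and tags DNA where nucleosomes leave it exposed, so peaks collect at promoters and enhancers. Most promoters of widely used human genes are rich in GC and in CpG dinucleotides and are open in nearly all cells, whereas distal enhancers are more specific to a cell type and often carry sites for factors such as AP-1. Orc6 belongs to the origin recognition complex (ORC), which loads the replicative helicase, and the ISWI remodellers, with the ATPases SMARCA5 and SMARCA1, slide nucleosomes. H2O2 oxidises DNA bases and proteins and is known to activate the antioxidant programme of NRF2 and the AP-1 family.

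The 6 promoters printed here are a selection that illustrates a sequence difference described below. Promoters whose regions were listed, or ranked higher, with H2O2 were mostly rich in CpG, and those listed or ranked higher without it were mostly poor in CpG. Each is the RefSeq window of 300 bases (GRCh38.p14), from 250 bases before to 50 after an annotated start, 5′ to 3′ on the gene's strand, with every CpG in capitals. FNDC4 lies on the minus strand at chr2:27495151-27495450 and GRB10 on the minus strand at chr7:50793404-50793703. Both had a gene-start region only with H2O2. BHLHA15, on the plus strand at chr7:98211189-98211488, ranked far higher with H2O2. SORBS2, on the minus strand at chr4:185933079-185933378, had a region only without H2O2. CCR2, on the plus strand at chr3:46353861-46354160, and RAP1GAP2, on the plus strand at chr17:2853434-2853733, ranked far lower with H2O2, and RAP1GAP2 is shown because it goes against the pattern.
FNDC4: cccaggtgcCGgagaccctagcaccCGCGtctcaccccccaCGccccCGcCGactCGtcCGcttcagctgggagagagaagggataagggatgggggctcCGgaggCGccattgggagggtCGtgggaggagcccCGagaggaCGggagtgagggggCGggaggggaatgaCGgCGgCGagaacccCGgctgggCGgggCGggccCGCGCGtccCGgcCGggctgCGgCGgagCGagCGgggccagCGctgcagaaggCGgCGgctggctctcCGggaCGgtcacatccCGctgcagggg
GRB10: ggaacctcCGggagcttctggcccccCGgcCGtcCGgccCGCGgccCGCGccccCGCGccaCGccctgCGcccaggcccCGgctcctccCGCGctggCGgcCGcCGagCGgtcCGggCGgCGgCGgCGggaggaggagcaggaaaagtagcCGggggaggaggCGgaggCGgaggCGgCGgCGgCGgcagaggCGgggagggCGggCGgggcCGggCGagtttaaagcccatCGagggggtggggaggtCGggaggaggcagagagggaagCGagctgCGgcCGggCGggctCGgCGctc
BHLHA15: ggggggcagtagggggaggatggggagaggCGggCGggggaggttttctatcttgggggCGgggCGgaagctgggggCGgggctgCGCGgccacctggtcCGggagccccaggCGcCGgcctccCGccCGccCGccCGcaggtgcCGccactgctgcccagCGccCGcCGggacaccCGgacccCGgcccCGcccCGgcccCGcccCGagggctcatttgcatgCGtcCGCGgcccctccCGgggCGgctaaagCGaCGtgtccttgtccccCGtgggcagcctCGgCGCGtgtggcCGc
SORBS2: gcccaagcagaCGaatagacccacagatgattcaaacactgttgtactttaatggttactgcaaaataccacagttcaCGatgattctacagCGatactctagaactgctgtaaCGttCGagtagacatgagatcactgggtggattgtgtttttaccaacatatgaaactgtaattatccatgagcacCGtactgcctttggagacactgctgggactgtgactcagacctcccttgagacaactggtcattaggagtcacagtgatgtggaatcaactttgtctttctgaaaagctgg
CCR2: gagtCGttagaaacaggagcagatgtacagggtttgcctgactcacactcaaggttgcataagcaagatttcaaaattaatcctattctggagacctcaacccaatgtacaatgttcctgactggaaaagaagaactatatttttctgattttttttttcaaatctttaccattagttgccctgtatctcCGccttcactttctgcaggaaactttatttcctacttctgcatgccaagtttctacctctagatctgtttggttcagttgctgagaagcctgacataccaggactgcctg
RAP1GAP2: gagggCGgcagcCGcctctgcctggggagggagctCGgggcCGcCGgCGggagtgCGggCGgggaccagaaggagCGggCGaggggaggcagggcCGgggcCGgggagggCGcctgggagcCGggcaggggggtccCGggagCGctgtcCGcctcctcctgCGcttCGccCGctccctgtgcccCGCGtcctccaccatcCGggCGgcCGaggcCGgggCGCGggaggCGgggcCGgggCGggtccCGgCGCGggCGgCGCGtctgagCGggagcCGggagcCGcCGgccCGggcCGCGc
FNDC4 held 35 CpG, GRB10 44 and BHLHA15 36, at a GC content of 75.7%, 81.0% and 79.3%. SORBS2 held 6 CpG and CCR2 2, at a GC content of 43.7% and 40.7%. FAM83E and MSH4, which ranked above SORBS2 among gene starts listed only without H2O2, are not printed. Their windows held 9 and 12 CpG at a GC content of 63.7% and 54.0%, both higher than in SORBS2. RAP1GAP2 held 44 CpG at 84.3% GC. Promoters with a region in both lists were mostly rich in CpG as well, with a median of 26 CpG.

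The H2O2 list was shorter than the NT list. It held 97816 peaks over 62.8 Mb, with a median width of 468 bp, against 109304 peaks over 70.6 Mb, with a median width of 485 bp, in the NT list, a difference of -11488 peaks or -10.5%, and of -11.0% in covered length. Of the 114070 regions, 88699 (77.8%) were in both lists. A further 6905 (6.05%, exact 95% Clopper-Pearson interval 5.92 to 6.19) were listed only with H2O2 and 18466 (16.2%, 16 to 16.4) only without H2O2, which is 2.67 NT-only regions for each H2O2-only region. These intervals cover counting error only and treat regions as independent, which neighbouring regions are not. In siGl3 cells the shares were 6.81% and 16.2%, with 2.38 NT-only regions per H2O2-only region. When the NT list was cut to its best 97816 peaks, 10474 regions were listed only with H2O2 and 10935 only without it. Shared regions take up similar numbers of peaks from each list, so lists of equal length leave similar numbers over. This near balance is therefore largely built in and does not show what the excess of NT-only regions depends on. Whether depth, the peak threshold or accessibility sets the list lengths was not tested.

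Regions in 1 list only were narrow and weak. Their median width was 254 bp for H2O2-only and 250.0 bp for NT-only regions, against 614 bp for regions in both lists. Peak signal, the seventh column of the lists, is the authors' value, and it was turned into a rank percentile within each list, 100 being the highest. H2O2-only regions had a median percentile of 10.9 in the H2O2 list and NT-only regions one of 13.3 in the NT list. Regions in both lists had medians of 54.1 with H2O2 and 58.9 without. Only 68 H2O2-only and 172 NT-only regions lay above the percentile of 50, and 6 and 7 above 70. Nearly all of the strong accessible sites of siOrc6 cells were therefore in both lists.

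**Figure D1:**
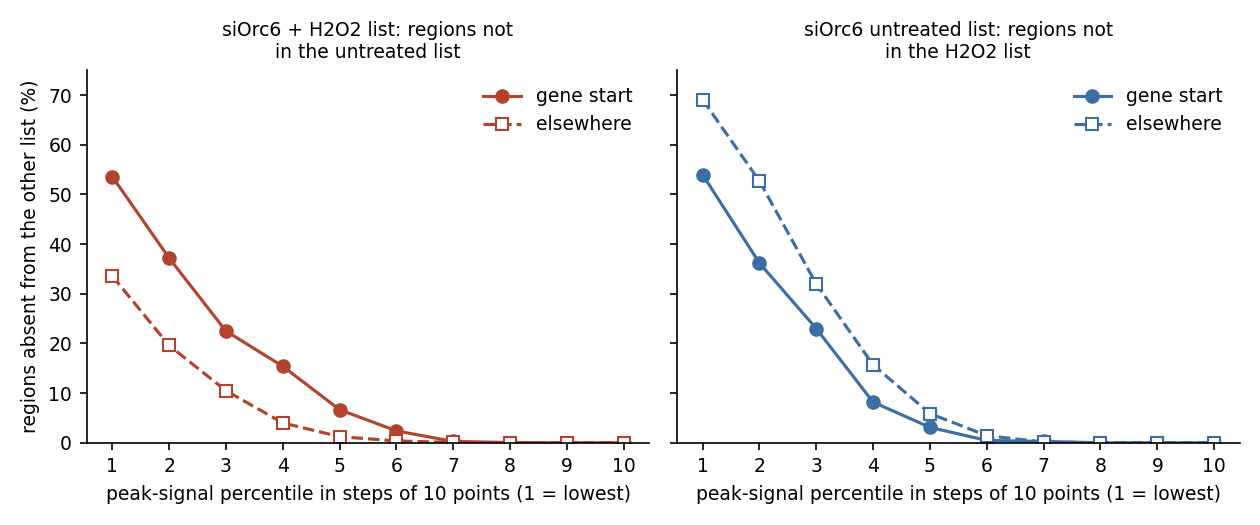
Share of siOrc6 regions absent from the other list (y axis, %) by peak-signal percentile of a list in 10 steps of 10 points (x axis, 1 is the lowest), for the H2O2 list (left) and the NT list (right), split into regions at a gene start (filled, solid line) and elsewhere (open, dashed line). In the lowest step of the H2O2 list 53.6% of gene-start regions and 33.6% of others were absent from the NT list, and in the lowest step of the NT list 54.0% and 69.1% were absent from the H2O2 list.

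Gene starts took a larger share of H2O2-only than of NT-only regions. A region was placed at a gene start where it came within 1 kb of an annotated start of a protein-coding gene. For the 4159 genes with no start-site entry either annotated end was used, so their regions may lie at the far end of the gene. Gene-start regions were 757 of the 6905 H2O2-only regions (11%, 10.2 to 11.7), 744 of the 18466 NT-only regions (4.03%, 3.75 to 4.32) and 14796 of the 88699 in both (16.7%). With lists of equal length the shares were 9.95% of H2O2-only and 3.82% of NT-only regions. The same contrast held at like strength. Between the percentiles of 30 and 40, 15.4% of the gene-start regions and 4.01% of the other regions in the H2O2 list were absent from the NT list. In the same range of the NT list, 8.20% of the gene-start regions and 15.7% of the others were absent from the H2O2 list. In siGl3 cells 11.3% of H2O2-only and 3.99% of NT-only regions lay at gene starts.

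Regions within gene bodies and between genes did not share that balance. Among regions inside protein-coding genes, 7.32% were H2O2-only and 18.1% NT-only. Between genes the shares were 5.64% and 18.4%, and inside lncRNA genes only they were 4.84% and 17.4%. Distance to the nearest start ordered the shares. Up to 1 kb, 4.64% of regions were H2O2-only and 4.21% NT-only; from 1 to 10 kb, 9.42% and 14.5%; from 10 to 100 kb, 6.08% and 17.5%; and over 100 kb, 4.29% and 21.4%. H2O2-only regions were thus most frequent at 1 to 10 kb from a start, and NT-only regions at over 100 kb from one.

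Gene-rich stretches of the genome had the highest share of H2O2-only regions and the lowest share of NT-only regions. In 1 Mb bins with over 20 protein-coding genes, 10.1% of regions were H2O2-only and 9.46% NT-only. In bins with 1 to 5 genes the shares were 4.40% and 19.4%, and in bins with none 4.71% and 21.7%. With lists of equal length the shares were 14.4% and 5.67% in the gene-rich bins, and 8.92% and 14.4% in bins with no gene. The order did not come from the gene starts alone. Among weak regions away from gene starts, at a percentile of at most 30 in their list, 36.9% of those in the H2O2 list were absent from the NT list in bins with over 20 genes, and 15.8% in bins with none. Of the weak regions in the NT list, 38.3% were absent from the H2O2 list in the gene-rich bins and 53.6% in bins with no gene. Gene-rich DNA is also richer in GC, and the part of GC content outside promoters was not analysed here.

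**Figure D2:**
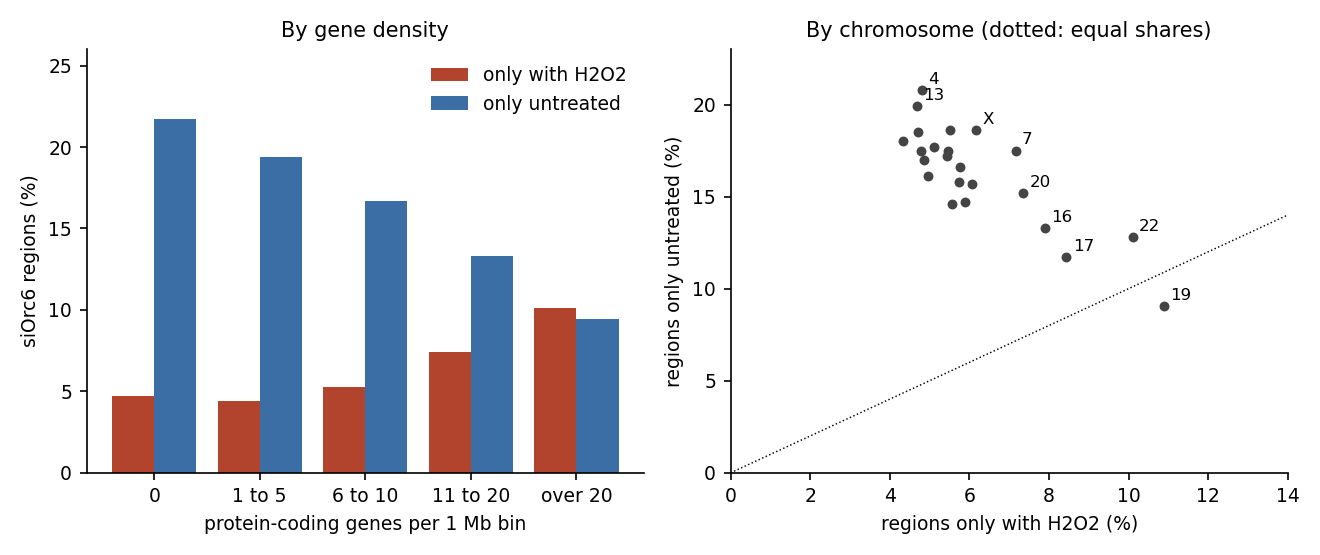
Left: share of siOrc6 regions (y axis, %) listed only with H2O2 and only untreated, in 1 Mb bins grouped by their number of protein-coding genes (x axis). Right: the same shares by chromosome, H2O2-only on the x axis and untreated-only on the y axis, with some chromosomes named; chromosome 19, at 10.9% and 9.07%, is the 1 point below the line of equal shares.

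Chromosomes followed the same order. On chromosome 19, the most gene-dense, 449 regions were H2O2-only and 374 NT-only, the 1 chromosome of 23 with more of the H2O2-only kind. Chromosome 22 had 299 and 378, and chromosome 17 had 428 and 592. At the other end, chromosome 4 had 237 H2O2-only and 1024 NT-only regions, and chromosome 13 had 101 and 429. Of the 2074 bins of 1 Mb with at least 20 regions, 190 had more H2O2-only than NT-only regions. The bin with the highest H2O2-only share was chr17:81000001-82000000, which holds 36 protein-coding genes: 41 of its 164 regions were H2O2-only and 6 NT-only. The bin with the highest NT-only share was chr3:116000001-117000000, with 1 protein-coding gene, where 0 of 20 regions were H2O2-only and 9 NT-only.

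Regions in both lists were compared by the shift in percentile of their best peak, H2O2 minus NT. The lists differ in length, so a shift describes order within lists and not a change in accessibility. The median shift was -2.81 points over all 88699 shared regions, with quartiles of -9.77 and 1.2. At gene starts the median was 0.115 and elsewhere -4.13, a difference of 4.25 points between gene starts and other regions. Gene starts are strong regions, and strong regions have less room to move, but the difference was positive in all 10 steps of mean percentile, from 1.09 to 10.4 points. Ranked among shared regions alone, so that both lists have the same length, gene starts had a median shift of 1.31 and other regions one of -0.771, a difference of 2.08 points. In siGl3 cells the medians were 0.539 at gene starts and -4.12 elsewhere.

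**Figure D3:**
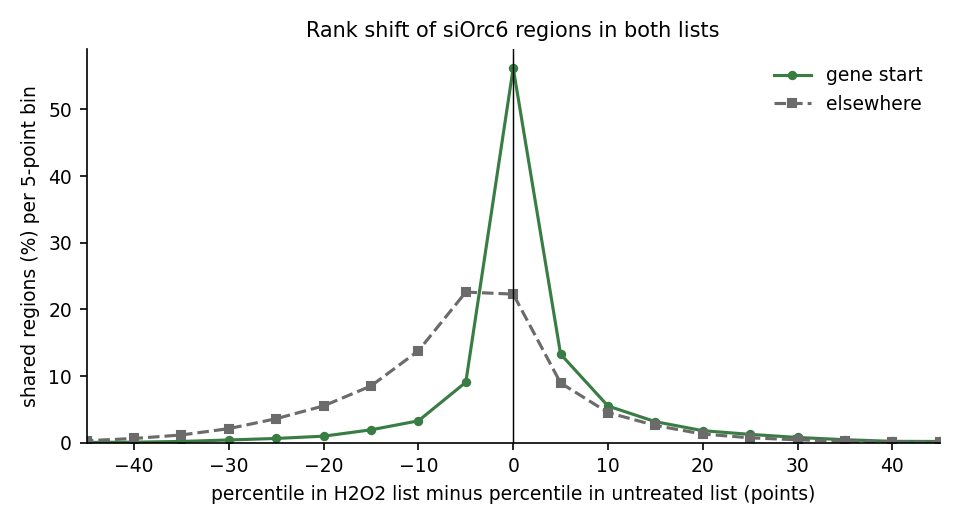
Share of shared siOrc6 regions (y axis, % per bin of 5 points) by the percentile in the H2O2 list minus that in the NT list (x axis, points), for regions at a gene start (circles, solid) and elsewhere (squares, dashed). Gene starts are centred near 0, at a median of 0.115, and the other regions reach further to the left, at a median of -4.13; the few shifts beyond 45 points are outside the axis.

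Large shifts were uncommon. The percentile was higher by 25 points or more with H2O2 in 1288 shared regions (1.45%) and lower by 25 points or more in 4666 (5.26%). At gene starts 366 were up (2.47%) and 173 down (1.17%), while elsewhere 922 were up (1.25%) and 4493 down (6.08%). Ranked among shared regions alone, 2207 were up and 2118 down over the genome. With the same regions ranked in both lists, rises and falls in rank cancel out. This near balance is therefore largely built in and does not show what the excess of regions that were down depends on. Covered width moved with rank. Regions that were up had a median of 539.5 bp covered by peaks with H2O2 and 339 bp without, and 93.1% were wider with H2O2. Regions that were down covered 289 bp with H2O2 and 486 bp without, and 2.85% were wider with H2O2. Ranked by the authors' −log10 p-value in place of peak signal, 97.4% of the first set were again higher and 0.386% of the second, but both columns come from the same peaks.

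Shared regions kept their position. In 95.6% of them 1 peak met 1 peak, the best summits lay a median of 11 bp apart, and 78.7% of summits were within 50 bp. The covered width with H2O2 was 0.949 times that without (median), 0.986 at gene starts and 0.939 elsewhere.

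Most large shifts went the same way in siGl3 cells. Of the 1288 regions that ranked higher with H2O2 in siOrc6 cells, 1045 were in both siGl3 lists, where 86.3% ranked higher and the median shift was 15.2. Of the 4666 that ranked lower, 3321 were in both siGl3 lists, where 6.44% ranked higher and the median was -20.4. Over all 80779 regions shared in both siRNAs, 32.9% ranked higher in siGl3 cells and the median was -2.66. Presence in 1 list carried over less completely. Of the H2O2-only regions of siOrc6 cells, 28.4% were H2O2-only in siGl3 cells too, 39.1% were in both siGl3 lists, 6.81% were only in the siGl3 NT list and 25.7% in neither. For the NT-only regions, 35.2% were NT-only in siGl3 cells, 24.8% were in both, 2.96% were only in the siGl3 H2O2 list and 37.0% in neither. Whether any of this differs between siOrc6 and siGl3 cells could not be tested with 1 list per condition.

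At the level of genes, 14065 of 19970 protein-coding genes had a gene-start region. It was listed only with H2O2 at 241 genes (1.71%), only without H2O2 at 180 (1.28%) and in both lists at 13644. Of the 241, 171 overlapped there a peak of the siGl3 H2O2 list and 53 one of the siGl3 NT list. Of the 180, 49 overlapped a peak of the siGl3 H2O2 list and 106 one of the siGl3 NT list. Among the 13644 genes the median shift of the best gene-start region was 0.0885 points, and 53.3% ranked higher with H2O2.

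The strongest gene start listed only with H2O2 was that of FNDC4, which encodes a secreted protein with a fibronectin type III domain. Its region, chr2:27494561-27495499, covers 939 bp and had a peak signal of 2136 and a −log10 p-value of 8.50, at percentile 76.1 of the siOrc6 H2O2 list, with no peak in the NT list. In siGl3 cells it also had a peak only with H2O2, at percentile 74.7. ADAMTS16, a secreted metalloprotease, was at percentile 65.9 with H2O2 and had no peak without. GRB10, an adaptor of the insulin receptor, was at 62.8 and PRKD1, the kinase protein kinase D1, at 61.1, both with none without H2O2. The next members were LONRF2 at 54.6, the cardiac splicing factor RBM20 at 53.2, the mitochondrial phospholipase PLD6 at 53.2, TCEAL2 at 52.8, the delta opioid receptor OPRD1 at 51.9 and the cytokine IL13 at 51.8. All 10 were in the siGl3 H2O2 list, and of them TCEAL2 was also in the siGl3 NT list.

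Gene starts listed only without H2O2 were led by FAM83E, at percentile 68.1 of the NT list with no H2O2 peak. Its region, chr19:48614034-48615369, had a peak signal of 1589.9 and a −log10 p-value of 6.61. MSH4, a MutS homologue of meiotic recombination, was at 60.4, SORBS2, a cytoskeletal adaptor, at 57.4, and the interferon-induced gene IFI44L at 53. These 4 were in the siGl3 NT list and absent from the siGl3 H2O2 list. IL1RAPL2 followed at 47.7, then 1 region at 44.8 that serves the neighbouring cytokine genes IL10 and IL19, MYOZ2 of the muscle Z-disc at 44.6, the receptor GPR141 at 44.4 and SIGLECL1 at 44.3. Of the last group IL10, IL19 and MYOZ2 were in both siGl3 lists, and IL1RAPL2, GPR141 and SIGLECL1 in neither.

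Among gene starts in both lists, the region with the largest upward shift was the chromosome 8 start of ADGRB1, an adhesion receptor also called BAI1, at percentile 65.6 with H2O2 and 4.82 without. Another start region of the gene, 1878 bp wide, barely moved, at 96.8 with H2O2 and 97.2 without. BHLHA15, a transcription factor of secretory cells, was at 67.7 with H2O2 and 7.21 without, and its peaks covered 935 bp with H2O2 and 352 bp without. RBPMS2, an RNA-binding protein, had a region at 66.1 with H2O2 and 7.61 without, where peaks covered 1368 and 305 bp. Its other start region was at 68.6 with H2O2 and 44.4 without. PACS1, a sorting protein of the secretory route, was at 62.1 with H2O2 and 4.95 without, and DCAF12L1 at 57.4 and 0.378. NOL4L and FBRSL1 had shifts of 56.4 and 55.9 points. In siGl3 cells the best start region of BHLHA15 was at 77.7 with H2O2 and 51.7 without, and that of RBPMS2 at 74.5 and 24.0. The shifted DCAF12L1 region overlapped a siGl3 peak only with H2O2. Over all start regions of DCAF12L1, the best siGl3 percentile was lower with H2O2, at 22.7 against 37.1 without.

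The largest downward shift at a gene start was at PMEPA1, a TGF-beta target that restrains TGF-beta signalling. Its region chr20:57687740-57690397 was at percentile 20.1 with H2O2 and 78.6 without, with peak signals of 364 and 2385, and its peaks covered 1082 bp with H2O2 and 2621 bp without. The strongest of its other start regions stayed near the top, at 99.0 with H2O2 and 99.4 without. S100A11, a calcium-binding protein, had a region at 4.66 with H2O2 and 60.1 without, beside a wider one at 88.0 and 90.8. LAP3, a leucine aminopeptidase, had one at 2.5 with H2O2 and 53.8 without, beside one at 89.8 and 89.0. CCR2, a chemokine receptor, was at 11.8 with H2O2 and 61.1 without and had no other start region. BCR, known from the BCR-ABL1 fusion, was at 1.36 with H2O2 and 49.8 without. RAP1GAP2, which inactivates the GTPase Rap1, had a region at 1.82 with H2O2 and 50.3 without. Its other start regions ranked higher with H2O2, the strongest at 61.8 with H2O2 and 50.3 without. LIMCH1, an actin and myosin regulator, had a shift of -45.9 and ATP6V1B2, a subunit of the proton pump of lysosomes, one of -50.5. Several of the large shifts were thus at a flank or another start of a gene whose strongest region kept its rank.

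Replication-dependent histone genes, which supply histones during S phase, ranked lower with H2O2 almost throughout. Of 51 listed, 33 had a gene-start region, 32 of them in both lists, and 2 ranked higher and 30 lower with H2O2, at a median shift of -2.47 points. Over all genes in both lists 53.3% ranked higher, and over the 9956 with a mean percentile over 80 the median shift was -0.00783. Many histone genes share a start region with a neighbour, and the 32 genes rest on 30 regions that include such shared ones. Ranked among shared regions alone, 5 were higher and 27 lower, with a median of -2.07, against 1.02 over all genes. H4C11 was at percentile 70.9 with H2O2 and 86.8 without. H4C3 was at 70.5 with H2O2 and 84.0 without, and H2BC17 at 18.6 and 36.6. The exceptions were H3C10, at 62.8 with H2O2 and 54.6 without, and the linker histone gene H1-1, at 80.8 and 79.9. H4C12 was listed only without H2O2, at percentile 8.08. In siGl3 cells 12 of 31 histone genes ranked higher, with a median shift of -0.356. The difference between siOrc6 and siGl3 cells was not tested.

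Genes of replication origins moved in the same direction by less. All 27 had a region in both lists; 4 ranked higher and 23 lower with H2O2, with a median shift of -0.791. Ranked among shared regions alone, 12 were higher and 15 lower, with a median of -0.0688, against 1.02 over all genes. The helicase subunit gene MCM6 was at 87.6 with H2O2 and 92.1 without, and the licensing factor gene CDT1 at 80.3 and 84.5. TOPBP1, which activates the checkpoint kinase ATR, was at 83.2 with H2O2 and 80.7 without. ORC1 to ORC6 had shifts between -1.26 (ORC2) and 1.13 (ORC5) points, and ORC6 itself was at 99.3 in both lists. In siGl3 cells 10 of 27 ranked higher, with a median of -0.235. Genes of double-strand break repair and the checkpoint had 6 higher and 20 lower, with a median of -0.692, and 12 higher and 14 lower among shared regions alone. Mismatch repair had 6 higher and 11 lower, and 8 and 9 among shared regions alone. Base excision repair had 9 higher and 15 lower, but 14 and 10 among shared regions alone. The share of all genes that ranked higher also rose with that ranking, from 53.3% to 71.3%. Base excision repair stayed below it, at 37.5% and 58.3%. Cytosolic ribosomal proteins had 16 higher and 36 lower, and 24 and 28 among shared regions alone. Among the ISWI genes, SMARCA5 was at 92.7 with H2O2 and 94.3 without, and its partners BAZ1A and BAZ1B had shifts of 0.421 and 0.843. SMARCA1 was the outlying ISWI gene. Its region chrX:129522759-129523623 was at 38.9 with H2O2 and 4.63 without, and its other start region at 21.4 and 13.3. In siGl3 cells its start regions overlapped a peak only without H2O2.

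**Figure D4:**
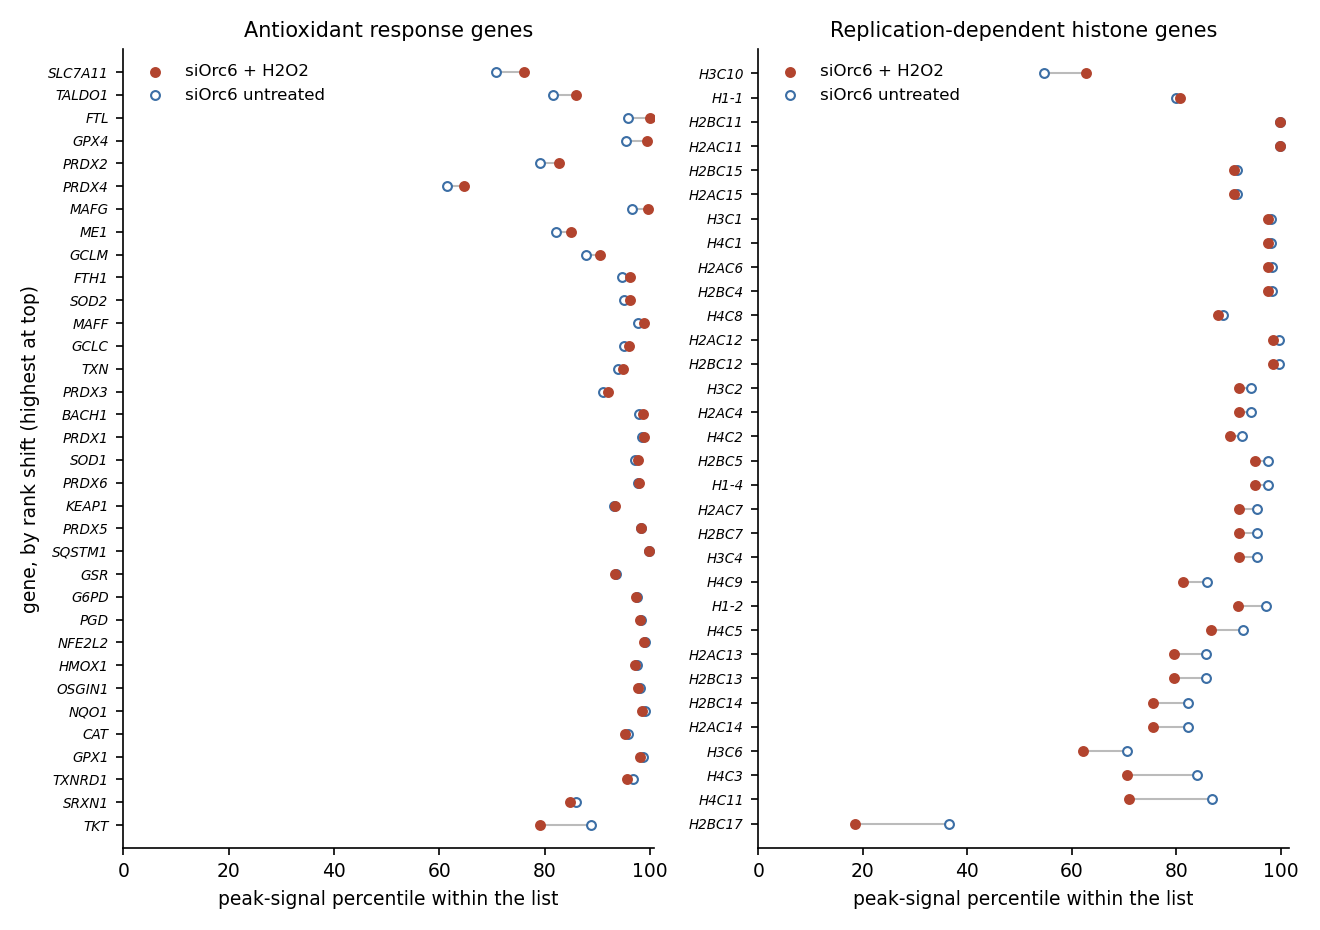
Peak-signal percentile (x axis) of the best gene-start region of antioxidant genes (left) and replication-dependent histone genes (right) in the siOrc6 H2O2 list (filled) and the siOrc6 NT list (open), for genes in both lists, sorted by shift with the highest at the top. Among the antioxidant genes 22 of 34 and among the histone genes 2 of 32 ranked higher with H2O2, against 53.3% of all genes in both lists.

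Antioxidant genes of the NRF2 programme were open in both lists at all 34 listed genes. With H2O2 22 ranked higher and 12 lower, with a median shift of 0.435 points, and among shared regions alone 27 and 7. Over all genes 53.3% ranked higher, and 71.3% among shared regions alone. The median among shared regions alone was 0.910 for the antioxidant genes and 1.02 over all genes. The cystine transporter gene SLC7A11 was at 76.1 with H2O2 and 70.8 without. FTL, the ferritin light chain, was at 99.9 with H2O2 and 95.8 without, and GPX4, which reduces lipid peroxides, at 99.3 and 95.4. TKT, transketolase, had the largest downward shift, at 79.0 with H2O2 and 88.8 without. The best known NRF2 targets hardly moved, with HMOX1 at 97.2 with H2O2 and 97.5 without, and NQO1 at 98.5 and 99.1. NFE2L2, which encodes NRF2, was at 98.9 with H2O2 and 99.1 without.

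Immediate-early genes, including those of AP-1, had 25 of 30 members with a start region, all in both lists, 15 higher and 10 lower with H2O2, at a median shift of 0.139. FOS was at 99.7 with H2O2 and 99.5 without, JUN at 99.9 in both, and EGR1 had a shift of 0.0503 points. JUNB was at 99.8 with H2O2 and 97.0 without. ZFP36, which speeds decay of cytokine mRNAs, moved the most, at 94.8 with H2O2 and 82.6 without, and in siGl3 cells at 91.2 and 84.0. Heat shock and unfolded protein genes had 15 higher and 5 lower, at a median of 0.197, led by TRIB3, a target of the stress factor ATF4, at 93.3 with H2O2 and 81.2 without, and the co-chaperone gene BAG3 at 90.9 and 80.4. Among shared regions alone 18 of the 20 were higher, against 71.3% of all genes. Their median there was 0.338, below the 1.02 over all genes. Targets of p53 had 10 higher and 15 lower, with a median of -0.142, but among shared regions alone 16 were higher and 9 lower. The share of all genes that ranked higher rose as well, from 53.3% to 71.3%. Targets of p53 stayed below it, at 40.0% and 64.0%. These stress genes were near the top of both lists, where a percentile has little room to go up.

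Inflammatory and interferon genes moved in both directions. IL1A, the cytokine interleukin 1 alpha, was at 53 with H2O2 and 24.0 without, whereas its neighbour IL1B was at 26.2 with H2O2 and 51.8 without. NFKB1, a subunit of NF-kB, was at 90.9 with H2O2 and 82.1 without. Of the 16 inflammatory genes in both lists, 9 ranked higher and 7 lower, and among shared regions alone 12 and 4. The antiviral membrane protein gene IFITM3 was at 66.7 with H2O2 and 26.6 without. OAS2, a sensor of double-stranded RNA, was at 34.3 with H2O2 and 58.4 without, and MX2, an antiviral GTPase gene, was listed only without H2O2, at 22.1. Of 20 interferon genes in both lists, 7 ranked higher and 13 lower, but among shared regions alone 12 were higher and 8 lower, where 71.3% of all genes were higher.

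Long genes were described by the regions in their bodies. In the bodies of common fragile site genes, long genes that break under replication stress, 22 of 556 regions (3.96%) were H2O2-only and 129 (23.2%) NT-only. In RBFOX1, a neuronal splicing factor gene, 2 of 102 regions were H2O2-only and 25 NT-only. DLG2, a synaptic scaffold gene, had 1 and 14 of 42, and LRP1B, a large receptor gene, had 0 and 8 of 17. IMMP2L had 0 of 10 in either class and WWOX 0 and 2 of 25. Bodies of long synaptic genes had 11 H2O2-only (2.76%) and 99 NT-only regions (24.8%) of 399. The counts cover 19 fragile site genes and 17 synaptic genes, each with at least 10 regions. For comparison, the NT-only share was 18.1% of all regions inside protein-coding genes and 21.4% of all regions over 100 kb from a start. Whether the long genes differ from either share was not tested.

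Among all 1650 genes with at least 10 regions in the body and 5 kb on each side, FSTL5, a secreted follistatin-like protein, had the largest NT-only share, with 0 H2O2-only and 6 NT-only regions of 10. IL1RAPL2 had 0 and 7 of 12, and DCC, the netrin receptor, 1 and 8 of 14. CASKIN1, a synaptic scaffold gene of 19426 bp, had the largest H2O2-only share, with 8 H2O2-only and 0 NT-only regions of 10. AATK, a kinase gene, had 6 and 0 of 13, and SMTN, which encodes smoothelin of smooth muscle, 6 and 0 of 14. Over the 1650 genes the median NT-only share was 16.7% and the median H2O2-only share 5.13%. The 6 genes with the largest NT-only shares spanned 184621 bp (CDC42SE2) to 1201631 bp (IL1RAPL2). The 6 with the largest H2O2-only shares spanned 19426 bp (CASKIN1) to 95038 bp (FBRSL1, which also had 4 NT-only regions of 15). These are extremes with few regions each, and length was not compared over all 1650 genes.

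Away from genes and starts, few strong regions were in 1 list only. The highest H2O2-only region, chr14:34547696-34549589, was at percentile 91.9 and lay within an lncRNA gene, with a peak in both siGl3 lists. The next, chr7:26178339-26180521 at 83.5, was inside a protein-coding gene with its nearest start, that of HNRNPA2B1, 21.3 kb away, and in siGl3 cells it had a peak only with H2O2. A shared region near it, chr7:26182291-26183703, had the largest upward shift of all, at 70.6 with H2O2 and 1.52 without. The highest NT-only region, chr18:39801194-39803212, was at 90.5 between genes, with a peak in both siGl3 lists. The next were chr17:27081467-27084090 at 85.3 and chr14:61788925-61791340 at 81.2, both listed in siGl3 cells only without H2O2. The largest downward shift of a shared region was at chr17:16442739-16445278, 2.43 kb from the start of LRRC75A, at 2.08 with H2O2 and 72.3 without.

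Promoter sequence separated the groups. Over 34789 promoter windows of 300 bases, the median GC content was 66.5% for the 382 with a region only with H2O2 and 73.7% for the 286 that ranked 25 points or more higher. It was 46.0% for the 111 that ranked 25 points or more lower and 47.3% for the 245 with a region only without H2O2. The 16959 with a region in both lists had a median of 65.3%, and the 16806 with no region one of 48.7%. The median number of CpG was 22 for H2O2-only promoters, 34 for those up, 3 for those down, 4 for NT-only promoters and 26 for those in both lists. Among weak promoters alone, with a best percentile of at most 30, the medians were 64.3% GC for H2O2-only, 47.7% for NT-only and 56.7% for those in both lists. Seen from the sequence, 2.27% of open promoters over 65% GC were H2O2-only and 0.266% NT-only, while of those up to 45% GC 2.30% were H2O2-only and 10.8% NT-only. The median shift was 0.417 points over 65% GC and -2.62 up to 45%. PCR and the transposase both have base preferences, and their part was not tested.

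**Figure D5:**
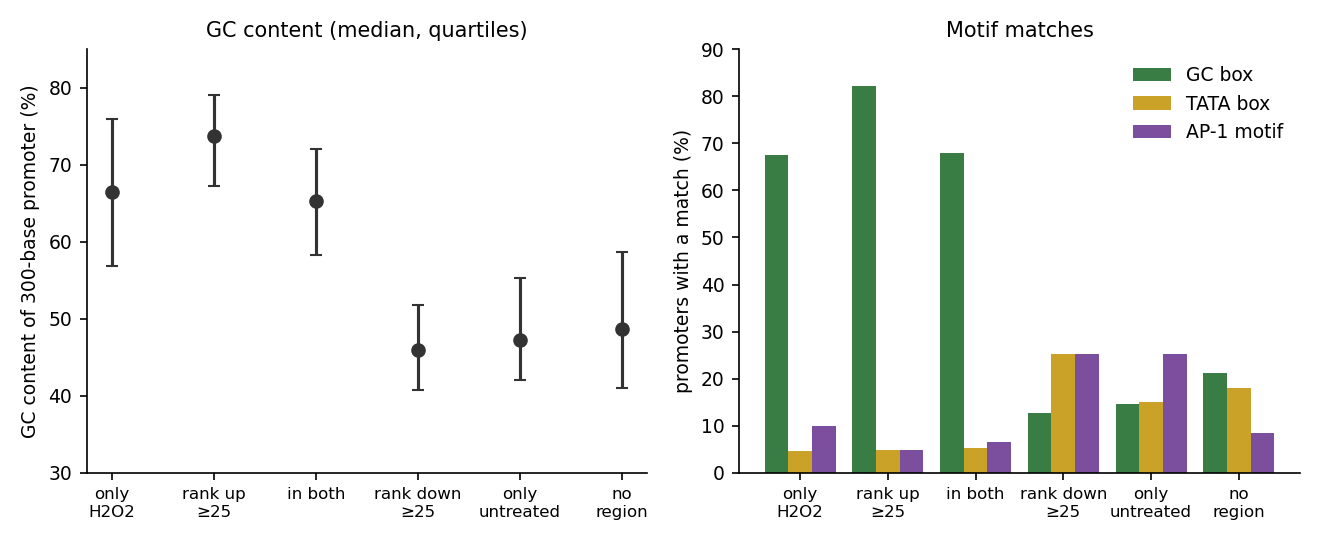
Left: GC content (y axis, %) of RefSeq promoter windows, as median (points) and quartiles (bars), by the class of their siOrc6 region (x axis); the promoters up or down by 25 points or more are also among those in both lists. Right: share of those promoters (y axis, %) with at least 1 match to the GC box, the TATA box and the AP-1 motif; NT-only promoters and those down by 25 points or more have a GC box in 14.7% and 12.6% and an AP-1 match in 25.3% and 25.2%.

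Matches to some motifs differed between the same classes and others did so less. Both strands were searched for the GC box GGGCGG, bound by SP1, for the TATA box TATAAA, and for the AP-1 motif TGANTCA, which can overlap the antioxidant response element TGACNNNGC. A match describes letters and not a bound site. The GC box was in 67.5% of H2O2-only, 82.2% of up, 12.6% of down and 14.7% of NT-only promoters, and in 44.9% of all. Promoters with a region in both lists held it in 67.9%, so H2O2-only promoters were close to them. The AP-1 motif was in 9.95% of H2O2-only, 4.90% of up, 25.2% of down and 25.3% of NT-only promoters, and in 7.69% of all promoters. The TATA box was in 4.71%, 4.90%, 25.2% and 15.1% of the same classes, and in 11.6% of all. The antioxidant response element was in 13.9% of H2O2-only and 19.2% of NT-only promoters, in 11.5% of up and 13.5% of down promoters, and in 13.4% of all. The CCAAT box CCAAT was in 30.1% of H2O2-only, 19.6% of up, 30.6% of down and 33.1% of NT-only promoters, and in 34.6% of all. The printed SORBS2 window holds 2 AP-1 matches and no GC box, the CCR2 window 1 AP-1 match and no GC box, and the BHLHA15 window 10 GC boxes and no AP-1 match. The FAM83E and MSH4 windows, not printed, each hold 1 GC box and no AP-1 match. A GC box is itself rich in GC, so its share and the GC content are not separate results.

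Most markers of the labelled cell type were open. Among mesenchymal genes VIM was at 99.8 in both lists, COL1A1 at 99.6 with H2O2 and 99.5 without, and FN1 at 95.5 and 94.4. The osteoblast factor gene SP7 was at 94.1 with H2O2 and 92.4 without and RUNX2 at 54.9 and 66.8, each at the best of 2 regions. Where a gene had no start-site entry, such a region may lie at its far end. Gene-start regions were present at 13 of 17 mesenchymal and 13 of 20 osteoblast genes. They were present at 13 of 16 neuronal, 8 of 15 epithelial, 9 of 17 blood, 5 of 10 endothelial and 2 of 10 hepatocyte genes. Over all protein-coding genes the count was 14065 of 19970, so these counts do not set the labelled cell type apart. The mineralisation genes ALPL and IBSP and the mesenchymal factor gene TWIST1 had no gene-start region in either siOrc6 list. Accessibility of a start is not expression, and KRT8 and CD8A, an epithelial and a blood gene, were also above percentile 90 in both lists. Starts of several genes of other tissues were listed only with H2O2: the B cell receptor gene CD79A at 39.4, the haemoglobin gene HBA1 at 24.6, the endothelial factor gene ERG at 47.9 and the neuronal factor gene NEUROD1 at 17. The bone morphogenetic protein gene BMP2 was also listed only with H2O2, at 33.3, with 2 start regions. The regions of these 5 genes were absent from the siGl3 NT list and present in the siGl3 H2O2 list. The cadherin genes CDH5 of endothelium, at 9.74, and CDH11 of osteoblasts, at 7.23, were also listed only with H2O2, but were in neither siGl3 list. Of the genes with a region, 2 of 9 blood, 1 of 13 neuronal and 2 of 5 endothelial genes were H2O2-only. The osteoblast count was 2 of 13, and no epithelial or hepatocyte gene was H2O2-only. Over all genes with a region the share was 1.71%. These counts are small and were not tested. The endoglin gene ENG was at 61.2 with H2O2 and 36.2 without. GRIN1, a glutamate receptor gene, had regions at 83.8 with H2O2 and 54.2 without, at 44.5 and 1.34, and at 22.3 and 23.7. The first, chr9:137167953-137169853, lies apart from the others. Some markers ranked lower with H2O2, such as ELF3 at 48.3 with H2O2 and 72.1 without. Of genes in both lists, 3 epithelial genes ranked higher and 5 lower. Blood genes had 4 and 3, neuronal genes 7 and 5, endothelial genes 1 and 2 and hepatocyte genes 0 and 2.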

How the data were processed

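ATAC-seq libraries of U2OS cells were analysed as 1 peak list per condition, each named for both libraries of its condition; the way those were combined is not stated. Per the submitters' processing notes, the build is hg38 and the tools include Genrich, Bowtie2 and bcl2fastq 2.20, along with Picard, deepTools, SAMtools and edgeR. Their roles, the peak threshold, the treatment of duplicates and any shift of reads for the transposase are not given in the sources used here. The deposited lists give the authors' peak signal in column 7 and the authors' −log10 p-value in column 8, without counts. No peak had a signal under 200.0. A peak score that grows with width would rank wide peaks higher.

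Peaks on chromosomes 1 to 22 and X were merged where they overlapped or touched; 168 peaks in each siOrc6 list lay on other sequences and were left out. Start sites came from the RefSeq promoter table (GRCh38.p14) for 15811 protein-coding genes, and both annotated ends served for the 4159 genes with no entry. Percentiles are ranks of peak signal within a list, taken for the best peak of a region or gene. Shares carry exact 95% Clopper-Pearson intervals, and no test was made. The lists of changed regions between siRNAs that the authors deposited were not used here.

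Named genes are the ORC and ISWI genes and, from gene starts, the highest in 1 list only, those with the largest shift, and list members in 1 list only or shifted by 25 points or more. The genes with the largest share of regions in 1 list and the strongest and widest regions were added. Other members of the gene lists and the shared regions with the largest shifts are named as examples, chosen after their values were seen, and the members and the 27 gene lists were chosen with earlier results of these data known. An item that the rule names is not reported here. Of 615 listed genes 614 were found. Merging was tested on simulated intervals against bedtools 2.31.1. Alternatives were stricter peaks, joined peaks, equal list lengths, other windows, another ranking and coverage; the gene-end window for all genes and gene starts in lists of equal length were added after seeing the data. The scripts ran under Python 3.11.15 with scipy 1.17.1, pandas 2.3.3, matplotlib 3.10.9 and numpy 2.4.6.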

Additional observations from a re-analysis of the deposited data

How the results depend on the processing

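With lists of equal length 10474 regions were listed only with H2O2 and 10935 only without, against 6905 and 18466 in the full lists. Near-equal counts are largely built into lists of equal length. Of these 10474 and 10935 regions, 9.95% and 3.82% lay at gene starts. With a peak signal of at least 400 the gene-start shares were 13.1% and 3.63%, with a window of 3 kb 20.6% and 9.30%, and with either annotated end for all genes 11.5% and 4.69%. The difference in median shift between gene starts and other regions, 4.25 points, was 4.55 ranked by −log10 p, 2.08 ranked among shared regions, 4.28 with a window of 3 kb, 4.24 with one of 500 bp and 4.12 with either annotated end. Ranked among shared regions, 2207 regions were up and 2118 down by 25 points or more, against 1288 and 4666. A near balance is largely built into that ranking, since rises and falls cancel out over the same regions. The same ranking turned p53 targets, base excision repair and interferon genes from mostly lower to mostly higher. The share of all genes that ranked higher rose from 53.3% to 71.3% as well, and these lists stayed below it under both rankings. The gene-start contrasts kept their direction in every alternative run. The causes were not tested. The counts of regions in 1 list stayed within 1.5 times with joined peaks, stricter peaks or greater coverage. No paired analysis was possible because each treatment has 1 list for both replicates, and no replicate could be left out for the same reason. Depth is unknown.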
